A study of Mus musculus with 8 samples.

Results

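The nuclear response of mouse embryonic fibroblasts (MEFs) to 10 µM RHPS4 was described gene by gene, from 2 RNA-Seq libraries of exposed cells and 3 libraries of untreated cells. Members were the nuclear genes with at least 10 counts in each of these 5 libraries, which left 12113 of 24421 nuclear genes, or of 24460 genes and mitochondrial DNA (mtDNA) features in all. RHPS4 is a small molecule that binds G-quadruplexes (G4), the stacked structures that guanine-rich DNA or RNA can fold into, and the study asked how such ligands act on mitochondrial gene expression and on the cell. The cells were wild type MEFs grown in a glucose-rich DMEM medium with serum, and the groups differed by the RHPS4 concentration alone (0, 2 or 10 µM). Another 3 libraries came from cells at 2 µM. Nothing names a vehicle for the 0 µM cells or ties the RNA-Seq libraries to either of the exposure times used in the study, and no label says that libraries came from separate cultures or animals, so the p values below measure only the spread between these samples, which may be technical. RNA came from whole cultures, in which fewer cells of a type and less RNA per cell cannot be told apart.

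Cells slow protein synthesis through the integrated stress response (ISR), in which kinases that sense amino acid shortage, unfolded proteins, viral RNA or mitochondrial failure phosphorylate the initiation factor eIF2α. Translation of the transcription factor ATF4 then rises, and ATF4 with its partners switches on genes for amino acid synthesis, import and tRNA charging, many of them through a C/EBP-ATF response element (CARE). Type I interferon acts through a complex that includes STAT2 and IRF9 on an interferon-stimulated response element (ISRE). Low oxygen stabilizes HIF-1α, which raises glycolytic enzymes, and low sterol releases SREBP2, which raises the enzymes of cholesterol synthesis through a sterol regulatory element (SRE). Fibroblasts also make and cross-link much of the extracellular matrix, and in culture they divide in response to growth factors in serum.

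The promoters of several genes that rose hold letters of the CARE. The windows below show it for 3 ISR genes (Chac1, Trib3 and Atf3), for 4 genes of amino acid import, synthesis and tRNA charging (Slc7a11, Asns, Pycr1 and Aars) and for Pck2, the mitochondrial PEP carboxykinase, which was chosen after its values were seen. They are RefSeq sequences of GRCm38.p6, written 5′ to 3′ along the strand of the gene, and capitals mark a match to TGATGNAA on either strand. Slc7a11 holds another match on the other strand, here in lower case, downstream of the one in capitals.
Chac1, chr2:119351004-119351101, plus strand: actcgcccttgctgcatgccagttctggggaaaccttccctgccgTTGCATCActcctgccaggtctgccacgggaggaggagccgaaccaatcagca
Trib3, chr2:152344011-152344091, minus strand: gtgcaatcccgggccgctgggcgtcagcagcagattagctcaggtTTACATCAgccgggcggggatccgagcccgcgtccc
Atf3, chr1:191183391-191183488, minus strand: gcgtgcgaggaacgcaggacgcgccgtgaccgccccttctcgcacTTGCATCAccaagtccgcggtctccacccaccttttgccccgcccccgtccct
Slc7a11, chr3:50443627-50443724, minus strand: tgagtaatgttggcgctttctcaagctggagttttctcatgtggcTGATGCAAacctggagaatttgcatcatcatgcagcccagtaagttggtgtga
Asns, chr6:7693180-7693277, minus strand: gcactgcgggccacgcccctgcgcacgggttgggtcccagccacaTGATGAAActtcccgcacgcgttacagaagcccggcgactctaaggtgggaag
Pycr1, chr11:120643799-120643896, minus strand: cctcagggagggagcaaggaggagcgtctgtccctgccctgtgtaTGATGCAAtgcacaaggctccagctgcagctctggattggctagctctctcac
Aars, chr8:111033806-111033891, plus strand: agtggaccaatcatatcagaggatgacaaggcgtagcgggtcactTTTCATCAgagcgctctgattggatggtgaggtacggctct
Pck2, chr14:55540118-55540215, plus strand: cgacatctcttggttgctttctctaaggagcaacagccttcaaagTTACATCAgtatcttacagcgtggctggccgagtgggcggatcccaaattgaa

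Among the interferon-stimulated genes, Ifit1, Ifit3, Rsad2 and Cxcl10 hold the ISRE, and among the cholesterol synthesis genes that fell, Hmgcs1 holds the SRE, searched as TCACNCCAC. Capitals in the next windows, of the same source and build, mark 1 match in each. Ifit1 and Ifit3 each hold another ISRE match, here in lower case, upstream of the one in capitals. A match is a string of letters and was not tested as a binding site.
Ifit1, chr19:34640759-34640858, plus strand: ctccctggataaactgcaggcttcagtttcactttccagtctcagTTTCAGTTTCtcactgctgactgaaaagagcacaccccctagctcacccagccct
Ifit3, chr19:34583362-34583461, plus strand: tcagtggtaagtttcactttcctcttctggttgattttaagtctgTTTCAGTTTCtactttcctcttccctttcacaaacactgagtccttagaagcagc
Rsad2, chr12:26456518-26456617, minus strand: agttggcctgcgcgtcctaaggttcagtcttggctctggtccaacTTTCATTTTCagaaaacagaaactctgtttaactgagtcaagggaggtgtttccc
Cxcl10, chr5:92349048-92349139, minus strand: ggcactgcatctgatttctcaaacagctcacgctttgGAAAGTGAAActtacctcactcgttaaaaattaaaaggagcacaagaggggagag
Hmgcs1, chr13:119690169-119690267, plus strand: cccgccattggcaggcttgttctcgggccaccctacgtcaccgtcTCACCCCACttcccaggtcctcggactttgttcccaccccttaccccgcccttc

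Total counts were between 10455965 and 26688121 in the 3 untreated libraries and were 15063449 and 12643261 at 10 µM, and the limit set by 3 counts lay between 0.112 and 0.287 CPM (counts scaled to library size), a limit that covers counting error only. Levels below are CPM scaled with the TMM method, means are given ± SD, and a log2 fold change is given with its SE. The first untreated library stood apart from the other two untreated ones, with a chi-square per degree of freedom of 18.4 and 24.1 against 3.62 between the second and the third. Over the members its log2 levels had a Pearson correlation of 0.990 to 0.991 with those libraries, which had 0.997 with each other. Between the 2 exposed libraries the chi-square per degree of freedom was 10.1 and the Pearson correlation 0.992. The mtDNA share of the counts moved with the dose, from 13.2% to 14.4% in untreated libraries and 5.33% to 6.32% at 10 µM. With TMM on nuclear genes alone 261 members were called higher and 147 lower, against 265 and 145 in the main fit. Any part of the mtDNA share beyond this scaling was not tested. Of the 10 fibroblast markers 9 were members, and the summed level of the list was 9693 to 10915 CPM in untreated and 9139 to 9278 CPM in exposed libraries. One of them, the PDGF receptor gene Pdgfrb, was called lower, with 234, 233 and 238 CPM untreated and 154 and 155 CPM exposed. The sums for epithelial (7 markers), leukocyte (7), endothelial (5), erythroid (6) and skeletal muscle markers (5) stayed under 11 CPM in each of the 5 libraries, and the 4 globin genes listed were at 0 in all 5. Neural markers (5) summed to 47.7 to 56.2 CPM untreated and 51.8 to 55.5 CPM exposed, mostly from Map2. The neural tubulin gene Tubb3 was called higher, with 3.22, 2.43 and 2.74 CPM untreated and 7.69 and 6.91 CPM exposed.

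At 10 µM 265 members rose and 145 fell by edgeR's quasi-likelihood test, which here means a change of over 1.5-fold with a Benjamini-Hochberg adjusted p of less than 0.01 over all tested genes. This is 2.19% of the members higher and 1.2% lower, against 1.95% and 1.14% of all 14296 tested genes. In each of them both exposed libraries lay beyond every untreated library. So they did in many members that were not called. Of all 12113 members, 2629 had both exposed libraries above and 2742 below every untreated one. Most changes were small, with a median size of 0.90 among genes that rose and 0.77 among genes that fell (log2). Over 2-fold changes were seen for 100 genes that rose and 35 that fell, and over 4-fold changes for 6 that rose and 0 that fell. Without the first untreated library 275 members rose and 327 fell, and the gene groups described below then had 11 ISR, 16 interferon and 17 amino acid genes that rose and 9 HIF, 10 growth factor, 18 sterol, 11 matrix and 7 cell cycle genes that fell. Scaling by total counts alone moved the median log2 fold change of all members by 0.22 and gave 803 higher and 50 lower members, and DESeq2 gave 228 and 252. Medians of gene lists are therefore stated relative to the median of all members. The gene lists hold 48 of the 265 higher genes (18.1%) and 44 of the 145 lower ones (30.3%).

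**Figure D1:**
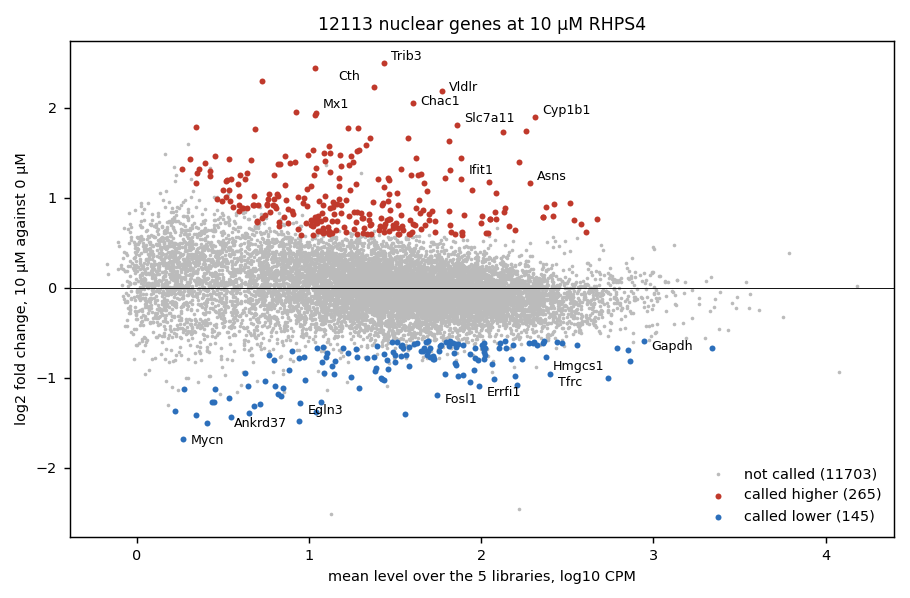
Each point is 1 of the 12113 members, with its mean level over the 5 libraries on the x axis (log10 CPM) and its log2 fold change at 10 µM against 0 µM on the y axis. The 265 red genes rose and the 145 blue genes fell, and those labelled are among the genes named in the text.

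Of 20 ISR regulators and feedback genes 10 rose and 0 fell (50% higher, against 2.19% of all members). The other 10 did not pass, 4 of them with negative log2 fold changes, and the list's median lay 0.67 above that of all members (log2), in both exposed libraries (0.68 and 0.61 above the untreated mean). Trib3 (GRCm38 chr2:152337422-152344032), a pseudokinase that restrains ATF4 signalling, had 11.1, 7.04 and 10.7 CPM in untreated cells and 42.9 and 64.2 CPM at 10 µM. Chac1 (chr2:119351229-119354381), which degrades glutathione, had 19.3, 16.2 and 18.5 CPM and then 71.4 and 76.6 CPM. Both exposed libraries were far above the untreated ones for each gene, at a log2 fold change of 2.5 ± 0.21 (adjusted p = 2.82e-05) for Trib3 and 2.05 ± 0.09 (adjusted p = 4.64e-07) for Chac1. Ddit3, which encodes the death-promoting factor CHOP, went from 20.8, 22.6 and 20.8 CPM to 57.5 and 49.4 CPM, a log2 fold change of 1.32 ± 0.13 (adjusted p = 8.49e-05). Vldlr, a lipoprotein receptor, rose by 2.18, the stress-induced factor Atf3 by 1.96, the mTORC1 inhibitor Sesn2 by 1.53, Nupr1 by 1.25, Atf5 by 1.20, the eIF2α phosphatase subunit Ppp1r15a by 0.84 and the translation repressor Eif4ebp1 by 0.76 (log2). Ppp1r15a was not called without the second untreated or the first exposed library, with adjusted p values of up to 0.0268 over the alternatives. Atf4 itself had 343, 285 and 280 CPM untreated and 450 and 439 CPM exposed. Its levels did not overlap, but its fold change of 1.47 was under the threshold (adjusted p = 0.00326).

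Of 20 genes of the unfolded protein response of the endoplasmic reticulum (ER) only Herpud1, which serves ER-associated degradation, passed the test, with 81.3, 75 and 78.6 CPM untreated and 134 and 138 CPM exposed. This is 5% of the list higher, against 2.19% of all members. The ER chaperone Hspa5 overlapped between groups, with 974, 845 and 831 CPM against 945 and 933 CPM. Of the 20 genes, 15 had negative log2 fold changes and 5 positive ones. In 9 both exposed libraries lay below all untreated ones and in 3 above, and the list's median lay 0.16 below that of all members (log2). None of 14 mitochondrial chaperones and proteases passed the threshold, and their log2 fold changes lay between -0.03 and 0.49. Among 15 cytosolic heat shock genes the co-chaperone Bag3 fell, by 0.60 (log2), a call lost without the second or the third untreated, the second 2 µM or the second exposed library (adjusted p up to 0.0543 over the alternatives). That call makes 6.67% of the heat shock list lower, against 1.2% of all members. Of the 15 genes, 14 had negative log2 fold changes and 1 a positive one. In 10 both exposed libraries lay below all untreated ones and in 1 above, against 2742 and 2629 of all 12113 members. The heat shock median lay 0.28 below that of all members (log2). Among 22 antioxidant targets of NRF2 the quinone reductase Nqo1 rose from 48.8, 38.3 and 38.3 CPM to 98.2 and 107 CPM, and the cystine carrier Slc7a11, also an ATF4 target, rose (9.09% of the list higher, against 2.19% of all members). The other 20 did not pass, with Hmox1 at a log2 fold change of -0.06 and Gclm at -0.53. Of 21 p53 targets Gadd45a, Btg2, Trp53inp1 and Plk2 rose (19.0%, against 2.19% of all members), while Cdkn1a overlapped between groups at 2.49 to 5.28 CPM untreated and 2.95 and 3.54 CPM exposed. The p53 list did not rise as a whole, with 10 positive and 11 negative log2 fold changes. In 7 genes both exposed libraries lay above all untreated ones and in 5 below. The list's median lay 0.13 below that of all members (log2). Btg2, an antiproliferative gene, had 8.41, 8.62 and 7.86 CPM and then 14.8 and 17.7 CPM. The calls of Trp53inp1 and Plk2 were lost without the second or the third untreated or the second exposed library, and that of Trp53inp1 also without the first exposed library (adjusted p up to 0.0514 for Trp53inp1 and 0.0289 for Plk2 over the alternatives).

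Of 91 amino acid genes in 5 lists 17 rose, 0 fell and the other 74 did not pass (18.7% higher, against 2.19% of all members). The medians of 4 of the lists lay 0.08 to 0.18 above that of all members (log2). The list of enzymes for asparagine, alanine, glutamate, proline and cysteine had 5 of 18 genes that rose. Cth, which makes cysteine from cystathionine, went from 9.55, 10.1 and 9.21 CPM to 45.5 and 45 CPM (log2 fold change 2.23 ± 0.12, adjusted p = 1.09e-06). Asparagine synthetase, Asns (chr6:7675169-7693254), went from 143, 121 and 123 CPM to 288 and 287 CPM. The alanine transaminase Gpt2 rose by 1.73, and Pycr1 and Aldh18a1, enzymes of proline synthesis, by 1.58 and 0.90 (log2). Each of these 5 genes had exposed levels well clear of the untreated ones, and the other 13 genes of the list had log2 fold changes at or under 0.49.

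Of 17 genes of serine synthesis and folate one-carbon metabolism 4 rose. Psph, the last enzyme of serine synthesis, had 49.4, 42.9 and 43.4 CPM untreated and 115 and 130 CPM exposed (log2 fold change 1.45 ± 0.09, adjusted p = 5.02e-06). The mitochondrial folate enzymes Aldh1l2 and Mthfd2 rose by 1.75 and 0.85, and the mitochondrial serine hydroxymethyltransferase Shmt2 by 0.80 (log2). Upstream of Psph, Phgdh and Psat1 had higher levels in both exposed libraries but did not reach a fold change of 1.5 (log2 fold changes 0.38 and 0.47), and the cytosolic folate enzyme Mthfd1 had -0.36. Among 19 amino acid transporters Slc7a11 (chr3:49892526-50443614) went from 36.1, 36.9 and 35.3 CPM to 129 and 123 CPM, and the glycine carrier Slc6a9 from 23.4, 31.4 and 30.3 CPM to 71.2 and 66.8 CPM. Slc38a7 rose by 0.78 and Slc1a4 by 0.60 (log2). Slc1a4 was not called without the second or the third untreated or the second exposed library, nor by DESeq2 (adjusted p up to 0.0409 over the alternatives), and Slc38a7 not without the first exposed library (adjusted p = 0.0138).

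Some of the enzymes that charge tRNAs rose. Of 20 cytosolic aminoacyl-tRNA synthetases Sars, Aars, Lars and Eprs rose, and the list's median lay 0.41 above that of all members (log2). Sars, for serine, had 271, 222 and 224 CPM and then 430 and 486 CPM, and Aars, for alanine, 411, 349 and 345 CPM and then 592 and 659 CPM. A further 7 cytosolic synthetases had an adjusted p under 0.05 and higher levels without being called, Nars among them at a log2 fold change of 0.52. Of 17 mitochondrial synthetases 0 passed the threshold in edgeR's quasi-likelihood test, and their median lay 0.08 above that of all members. The difference between the compartments was not tested. Lars2 varied among the untreated libraries alone (513, 147 and 85.6 CPM), and it holds a repeat that resembles ribosomal RNA, so that its level is uncertain.

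Interferon-stimulated genes gave the largest median of the 26 lists, 1.23 above that of all members (log2) at 10 µM, and 15 of 21 rose while 0 fell (71.4% higher, against 2.19% of all members). Mx1, an antiviral GTPase, had 5.5, 4.96 and 5.12 CPM untreated and 19.2 and 19.8 CPM exposed (log2 fold change 1.92 ± 0.16, adjusted p = 2.13e-05). Transcription factors of the pathway were among the genes that rose. Irf7 (chr7:141262706-141266481) went from 8.2, 7.63 and 7.34 CPM to 22.3 and 20.8 CPM. Irf9 and Stat2 rose by 0.87 and 0.75 (log2), the latter not without the second untreated or the second exposed library (adjusted p up to 0.0255 over the alternatives). Ifi44 rose by 1.66, Ifit3 by 1.63, the feedback protease Usp18 by 1.59, Mx2 by 1.47, and the RNA sensor Ddx58 by 0.76 (log2). Isg15, a ubiquitin-like modifier, had 7.78, 6.10 and 9.13 CPM and then 12.6 and 27.4 CPM. It did not pass (adjusted p = 0.0124), with the exposed libraries far apart from each other. The chemokine Ccl5 was the one member of the list with lower exposed levels, 4.70 and 5.18 CPM against 5.85 to 7.46 CPM. Ifit3 and Oas1a have near-identical copies, and reads of such genes can be lost or shared. At 2 µM, against the same untreated libraries, the medians of this list in the 3 libraries were -0.58, -0.60 and -0.47.

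Of 24 HIF targets and glycolytic genes 9 fell, 0 rose and 15 did not pass (37.5% lower, against 1.2% of all members), and the median lay 0.49 below that of all members (log2). Pfkl, a phosphofructokinase of liver type, had 210, 185 and 191 CPM untreated and 101 and 97.8 CPM exposed (log2 fold change -0.98 ± 0.08, adjusted p = 2.89e-05). The glucose transporter Slc2a1 went from 145, 132 and 145 CPM to 74.1 and 82.5 CPM. Egln3, a prolyl hydroxylase that marks HIF-1α for degradation, had 9.45, 13.4 and 12 CPM and then 4.95 and 4.75 CPM. Ankrd37 fell by 1.48, the vasodilator peptide gene Adm by 1.27, the mitophagy receptor Bnip3 by 0.91, and Gpi1 and Pdk1 each by 0.61 (log2). Gapdh, which has processed copies that can share its reads, fell by 0.59, near the threshold, and its call was lost without the second or the third untreated or the second exposed library (adjusted p up to 0.0285 over the alternatives). Pdk1 was not called without the third untreated or the first exposed library, and Gpi1 not without the first exposed library. Vegfa, another HIF target, overlapped between groups, with 102, 94.6 and 104 CPM against 104 and 102 CPM. Ldha had lower levels in both exposed libraries (log2 fold change -0.61) at an adjusted p of 0.0127. At 2 µM Bnip3 had 63.7 ± 2.35 CPM (SD, n = 3) and Egln3 6.21 ± 0.799 CPM, against 59.1 ± 7.17 and 4.85 ± 0.140 CPM (SD, n = 2) at 10 µM.

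Of 24 immediate early and feedback genes of the growth factor response 7 fell and 0 rose (29.2% lower, against 1.2% of all members), with a median 0.37 below that of all members (log2). Fosl1, an AP-1 subunit, had 68.0, 73.2 and 74.5 CPM untreated and 36.9 and 25.7 CPM exposed (log2 fold change -1.20 ± 0.13, adjusted p = 0.00017). Errfi1, which inhibits the EGF receptor, fell by 1.09 with both exposed libraries below 59 CPM. The MAP kinase phosphatase Dusp6 went from 92.3, 82.2 and 81.9 CPM to 53.9 and 56.7 CPM, and Dusp1 and the factor Etv4 fell by 0.77 and 0.61 (log2). Fos and Fosb fell by 1.18 and 1.21, from levels of 7.16 to 10.4 CPM, but not when the second or the third untreated library or either exposed one was left out, nor, for Fosb, the second 2 µM library (adjusted p up to 0.0503 and 0.0502 over the alternatives). Myc and Egr1 overlapped between the groups, at log2 fold changes of 0.15 and -0.26.

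**Figure D2:**
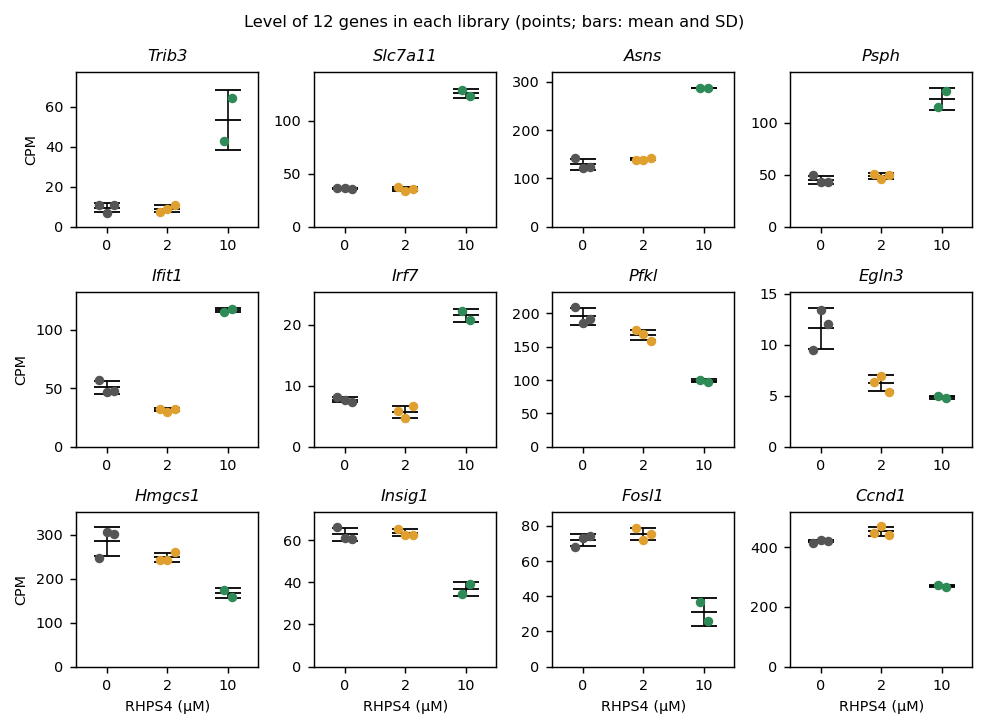
CPM of 12 named genes (y axes, from 0) in each library at 0, 2 and 10 µM RHPS4 (x axes), with the mean and SD of each dose as bars. In each panel both green points (10 µM) lie beyond all grey points (0 µM), above them for Trib3, Slc7a11, Asns, Psph, Ifit1 and Irf7 and below them for the others.

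Of 56 sterol and lipid genes 14 fell and 0 rose (25.0% lower, against 1.2% of all members). In the mevalonate pathway 3 of 10 genes fell and the median lay 0.51 below that of all members (log2). Hmgcs1 (chr13:119690379-119708260), which makes HMG-CoA, had 247, 307 and 301 CPM untreated and 175 and 158 CPM exposed (log2 fold change -0.78 ± 0.10, adjusted p = 0.000704), and it was not called without the second exposed library (adjusted p up to 0.013 over the alternatives). Idi1 fell by 0.76 and Acat2 by 0.72 (log2), the latter not without the second untreated, the second 2 µM or the first exposed library (adjusted p up to 0.0409 over the alternatives). From squalene to cholesterol 5 of 12 genes fell, with a median 0.58 below that of all members. Hsd17b7 had 46.2, 45.1 and 48.2 CPM and then 25.4 and 25.7 CPM, Cyp51 fell by 0.80, and Sqle and Lss each by 0.61 (log2).

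Of 17 genes for sterol sensing, uptake and efflux 2 fell, among them Insig1, which holds SREBP in the ER. Insig1 went from 66.4, 61.2 and 60.6 CPM to 34.4 and 39 CPM. The efflux pump Abca1, which oxysterols induce, did not pass (log2 fold change -0.34, adjusted p = 0.0418). Of 17 fatty acid genes 4 fell. Elovl6, an elongase, went from 186, 172 and 183 CPM to 101 and 108 CPM, the desaturases Scd2 and Fads2 each fell by 0.67, and fatty acid synthase, Fasn, fell by 0.81 (log2). Fasn was not called without the second or the third untreated, the second 2 µM or either exposed library (adjusted p up to 0.0565 over the alternatives). Under scaling by total counts 2 of the 14 sterol and lipid genes were called lower.

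Of 97 matrix genes 8 fell and 0 rose (8.25% lower, against 1.2% of all members), and 0 of 20 collagen genes passed edgeR's quasi-likelihood test at the thresholds, 3 of them having lower levels at an adjusted p under 0.05. Col1a2 had 3250, 3114 and 3129 CPM untreated and 3151 and 2744 CPM exposed, which overlap. The enzymes that modify and cross-link collagen stood lower, with 4 of 16 genes that fell and a median 0.35 below that of all members (log2). P4ha2, a prolyl hydroxylase subunit, had 90.3, 81.9 and 85.9 CPM and then 44.6 and 51.5 CPM, and the lysyl hydroxylase Plod2 108, 97.3 and 103 CPM and then 61.8 and 62.0 CPM. Loxl1 and Loxl2, lysyl oxidase-like enzymes, each fell by 0.67, but neither was called without the third untreated or the second exposed library, nor Loxl1 without the second untreated or the first or the second 2 µM library, nor Loxl2 without the first exposed library (adjusted p up to 0.0687 and 0.0367 over the alternatives). The microfibril gene Fbn2 fell by 0.97, Tgfbi by 0.64 and the protease Mmp3 by 0.87 (log2), and Tgfbi was not called without the second exposed library. At 2 µM Fbn2 and Tgfbi had 53.2 ± 5.57 and 54.4 ± 4.13 CPM (SD, n = 3), and at 10 µM 49.8 ± 0.118 and 59.0 ± 0.478 CPM (SD, n = 2). Among 15 targets of YAP and SRF only Ctgf fell, and not without the first exposed library (adjusted p up to 0.0106 over the alternatives). The matrix list medians other than that of the collagen enzymes lay 0.02 to 0.17 below that of all members, and all of them turned positive in absolute terms under scaling by total counts.

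Of 95 cell cycle genes 5 fell and 0 rose (5.26% lower, against 1.2% of all members). Cyclin D1, Ccnd1 (chr7:144929931-144939925), which carries growth factor signals into the cycle, had 416, 423 and 422 CPM untreated and 273 and 268 CPM exposed (log2 fold change -0.64 ± 0.07, adjusted p = 0.000237). The atypical E2F repressors E2f8 and E2f7 fell by 1.01 and 0.83, the replication licensing factor Cdc6 by 0.63 and the uracil glycosylase Ung by 0.77 (log2). E2f8 and E2f7 were not called without the second or the third untreated or the second exposed library, nor E2f8 without the second 2 µM library, Ung not without the second untreated, the second 2 µM or either exposed library, and Cdc6 not without the first exposed library (adjusted p up to 0.0699, 0.0338, 0.0393 and 0.0113 over the alternatives). Of 36 replication genes 23 had both exposed libraries below all untreated ones, and of 36 mitotic genes 22 did, against 2742 of all 12113 members. Mki67 was one of them, with 1094, 1212 and 1187 CPM and then 900 and 737 CPM (log2 fold change -0.51, adjusted p = 0.00698). The medians lay 0.17 and 0.20 below that of all members, and both were just above 0 (0.04 and 0.00) under scaling by total counts.

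Large changes also fell outside the lists. Besides genes already named, the 15 largest increases held Cdsn, an adhesion protein of skin (4.15, 3.07 and 4.49 CPM untreated, 23.0 and 19.5 CPM exposed), and Angptl6, a secreted angiopoietin-like factor (2.91, 1.73 and 1.87 CPM, then 9.10 and 11.1 CPM). The mitochondrial thioesterase Acot2 rose by 1.94 and the interferon-induced GTPase Iigp1 by 1.78 (log2). Cyp1b1, a cytochrome P450 known as a target of the aryl hydrocarbon receptor, had 104, 93.1 and 97.5 CPM untreated, 237 ± 25.0 CPM (SD, n = 3) at 2 µM and 348 and 380 CPM at 10 µM. Zcchc5, Otub2 and Pdzd7 rose by 1.77 to 1.79 (log2).

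Most of the 15 largest decreases were of genes at low levels. Mycn, a MYC family factor, had 2.59, 2.53 and 2.58 CPM untreated and 0.672 and 0.935 CPM exposed (log2 fold change -1.68 ± 0.27, adjusted p = 0.00249). It was not called without the second or the third untreated library or either exposed one (adjusted p up to 0.027 over the alternatives). The clock and hypoxia repressor Bhlhe40 went from 40.6, 49.8 and 53.8 CPM to 21.1 and 15.3 CPM, and the angiotensin receptor Agtr2 from 14.3, 14 and 15.3 CPM to 5.86 and 5.32 CPM. Phospho1, Tnfrsf9, Cmklr1, Dock8, Snora52, Sema7a, Gm2115, Il20ra and Hsd11b1 fell by 1.27 to 1.5 (log2), and of these 9 only Dock8 and Gm2115 kept the call when either exposed library was left out. The following genes, at higher levels, were chosen after their values were seen. The transferrin receptor Tfrc had 336, 291 and 312 CPM untreated and 157 and 166 CPM exposed, the chemokine Cx3cl1 143, 153 and 148 CPM and then 77.1 and 69.6 CPM, and Pck2 105, 95.1 and 101 CPM and then 250 and 277 CPM.

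The CARE and the ISRE were found at higher shares in promoters of genes that rose than in those of all members. The search covered 300 bases of RefSeq promoter (250 before and 50 after the start, GRCm38.p6) on both strands, for the CARE and SRE letters given above, for the cell cycle element CHR as TTTGAA, and for the hypoxia response element HRE as ACGTG. The antioxidant response element ARE was searched as TGACNNNGC, and the ISRE, the SRF box, the CCAAT box and a G4 motif (4 runs of at least 3 guanines with loops of 1 to 7 bases) under these names. An ARE or a G4 match can also hold an HRE, and a G4 match or an SRF box can hold a CCAAT box. Promoters were found for 9631 of the 12113 members (79.5%), for 212 of the 265 genes that rose and for 113 of the 145 that fell. As this is under 80% of the members, the search is void as a check of the sets because too many have no entry in the table, and the shares describe the promoters found. The CARE was in 26 of 212 promoters of genes that rose (12.3%, 95% exact interval 8.17% to 17.5%), in 4 of 113 of those that fell (3.54%) and in 205 of 9631 of all members (2.13%), and in 3.97% of all 32851 promoters in the table. The ISRE was in 36 of the 212 (17.0%, 12.2% to 22.7%), in 3.54% of those that fell and in 2.88% of all members, and in 3.44% of all promoters. Some of the 36 are near-identical copies, such as Gbp2 and Gbp2b or Oas1a and Oas1g. The exact interval counts copies as separate promoters, so it may be too narrow. Within the lists the CARE was in 5 of 14 promoters of amino acid genes that rose and in 10 of 67 of the whole group, and the ISRE in 7 of 11 of interferon genes that rose and in 10 of 16 of the whole list.

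G4 motifs were in 26.9% of the promoters of genes that rose, in 33.6% of those that fell (25.0% to 43.1%) and in 27.3% of all members. The SRE was in 1 of 44 promoters of sterol and lipid genes, that of Hmgcs1, and in 1.05% of all members. Of the 14 sterol and lipid genes that fell, 10 had a promoter in the table, Hmgcs1 among them. The HRE was in 5 of the 9 HIF and glycolysis genes that fell (Ankrd37, Bnip3, Egln3, Gapdh and Slc2a1), in 12 of 23 promoters of the whole list and in 26.1% of all members, and the CHR in 32 of 77 cell cycle promoters and 11.8% of all members. No match says only that these letters are not in the window.

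Transcripts of the genes that rose had a median GC content of 47.7% and those that fell 51.4%, against 49.5% of all members, from GENCODE models for 250, 142 and 11662 genes. Over 10 bins of GC content the median log2 fold change went from 0.05 in the lowest bin to -0.07 in the highest. In the lowest bin 2.91% of the genes rose and 0.26% fell, and in the highest 1.37% and 1.29%. The share that fell was largest, 1.97%, in bin 7. The part of GC content in the calls was not tested.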

How the data were processed

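RNA-Seq counts of fragments per gene were used as the authors deposited them, as whole numbers without normalization. Per the labels and the study's methods, ribosome-depleted, strand-specific total RNA libraries were sequenced, trimmed (Trim Galore, cutadapt), aligned to mm10 with STAR 2.5.2a and counted with featureCounts. The annotation is not given in the sources used here. One edgeR 4.0.16 model (R 4.3.3; TMM scaling, filterByExpr, quasi-likelihood fit and test) held all 8 libraries and no factor but the dose, and the thresholds of 0.01 for the Benjamini-Hochberg adjusted p and 1.5 for the fold followed the study. SEs were log2 fold changes over the root of the F statistic. Intervals are exact (Clopper-Pearson) at 95%. Positions, GC content and lengths came from GENCODE for GRCm38, promoters from RefSeq. Python 3.11.15, scipy 1.17.1 and DESeq2 1.42.0 were also used. The procedure was tested on simulated counts.

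The members, gene lists and tests were chosen with earlier results of these data known. Named genes were, by rule, called members of the 26 lists and the defining genes that were not called, the 15 largest changes in each direction, and 5 genes outside the count rule by smallest p. Some genes named by it are not reported here. A gene was said to overlap where the exposed libraries did not all lie beyond the untreated ones. Other settings tried were RLE size factors, TMM on nuclear genes alone, total counts, no filter, at least 10 counts in every library at 0 and 10 µM, DESeq2, only the 5 libraries, the replicate number as a block, other thresholds and each library left out. Replicate numbers come from the sample titles.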

Additional observations from a re-analysis of the deposited data

Results flagged for a closer look

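Genes with under 10 counts in a library fell outside the count rule. Of the 2157 such nuclear genes that were tested, 14 were called higher at 10 µM and 0 lower by edgeR's quasi-likelihood test. Among the members 2.19% were called higher and 1.2% lower. Of the genes below, Aldh3a1, Hhipl1 and Maats1 were under 10 counts only in the first untreated library, the one with the fewest counts. The 5 with the smallest p are given as counts. Aldh3a1, an aldehyde dehydrogenase, had 9, 20 and 23 counts untreated and 93 and 88 exposed (log2 fold change 2.65). Cyp1a1, a cytochrome P450, had 4, 2 and 10 and then 34 and 30 (2.83). Car6, a secreted carbonic anhydrase, had 3, 6 and 8 and then 50 and 31 (3.07). Hhipl1 had 7, 23 and 23 and then 52 and 59 (1.93), and Maats1 had 6, 15 and 26 and then 53 and 34 (1.75). The ISR target Fgf21, a hormone, had 0, 1 and 3 counts untreated and 16 and 11 exposed.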

How the results depend on the processing

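No named gene that was called turned its direction under the alternatives run. Each had changed by over 1.5-fold, with both exposed libraries beyond every untreated one. A turn could thus hardly occur, and its absence is no support. The medians of 10 of the 26 lists, negative with TMM, were 0.00 to 0.18 under total counts (ER unfolded protein response, NRF2, p53, sterol sensing, collagens, elastic fibre, proteases, YAP and SRF, replication and mitotic lists). Relative to the median of all members 0 turned. A change of scaling moves all members by nearly the same amount, so that count could hardly differ and is no support. Of 122 named genes that were called, 122 were also called with RLE scaling, 119 with DESeq2, 122 without the first untreated library and 94 without the second exposed one. In every fit run 115 members were called higher and 25 lower. Total counts alone gave 803 higher and 50 lower members, and changed list counts to 14 ISR, 18 interferon, 6 HIF, 4 growth factor, 31 amino acid, 2 sterol, 3 matrix and 1 cell cycle gene. Lower genes numbered 262 with no filter on low counts, 252 with DESeq2, 88 from the 5 libraries alone (2 of them cell cycle genes), 333 with no minimum fold and 237 at an adjusted p under 0.05. A fold change over 2 left 100 higher and 35 lower. Beyond the changed thresholds themselves, the cause was not tested.

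Leaving out 1 library at a time gave 141 to 275 higher genes and 75 to 327 lower ones, the extremes without the second exposed and without the first untreated library. Without the second untreated library there were 151 and 95, without the third 177 and 92, and without the first exposed 157 and 157. Where 1 exposed library was left, it was assumed to vary like the other groups. List counts ran from 9 to 11 (ISR), 13 to 17 (interferon), 7 to 9 (HIF), 5 to 10 (growth factor), 16 to 18 (amino acid), 12 to 18 (sterol), 5 to 11 (matrix) and 2 to 7 (cell cycle). The deviations of same-numbered untreated and exposed libraries from their group means had correlations of -0.33 and -0.30. With 2 exposed libraries such deviations mirror each other, so these values cannot tell whether the numbers pair the libraries. The fit with the replicate block gave 189 higher and 107 lower genes and 5 matrix genes. With 2 exposed libraries, changes under 1.5-fold and genes at a few CPM are the least certain.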

Other observations

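Some gene families that share a symbol were chosen after the values were seen. Only the Oas family shares genes with the interferon list, Oas1a among them. As they were chosen in this way, none of the families is separate support for that list. Of all members 2.19% were called higher. Of 10 guanylate-binding protein genes (Gbp) 7 rose and 0 fell at 10 µM, of 8 oligoadenylate synthetase genes (Oas) 6 rose, and of 4 immunity-related GTPase genes (Igtp, Iigp1, Irgm1 and Irgm2) all 4 rose, with median log2 fold changes of 1.11, 0.98 and 1.30. Some of these genes are near-identical copies of each other (Gbp2 and Gbp2b, Oas1a and Oas1g), so that their reads may not be counted apart. Gbp2 had 29.2, 21.4 and 25.0 CPM untreated and 58.9 and 60.4 CPM exposed, and Tap1, a peptide transporter of antigen presentation, rose by 0.82 (log2), though not without the second exposed library (adjusted p = 0.0263). Of 37 Trim genes 5 rose and of 12 Parp genes 3 rose, Parp9, Parp10 and Parp14. The family medians were 0.06 for Trim and 0.40 for Parp (log2), so the Trim genes did not move as a whole.

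Families with little change were the cytosolic ribosomal protein genes (77 members, 0 called, median log2 fold change 0.04) and the nuclear genes for complex I subunits (43 members, 0 called, median 0.09), which both lay below 0.6 in size. Histone genes had a lower median, -0.43 (log2), and of 63 of them 5 fell (Hist1h2ai, Hist1h2bc, Hist1h2bj, Hist1h4j and Hist4h4), where 1.2% of all members fell. H1f0, a linker histone of cells that have left the cycle, rose, by 0.94 (log2). Histone genes are also near-identical copies, and their counts are uncertain.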
